A study of Mus musculus with 23 samples.

Results

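A set of 10 genes for microtubule-associated proteins (MAPs) and related tubulin-binding proteins was followed through cultured mouse hippocampal neurons whose axons were pulled with magnetic particles. They were chosen by name, with earlier results of these data known: Map1a, Map1b, Map2, Map4, Map6, Mapt, Dcx, Dclk1, Dpysl2 and Dpysl3, 10 of the 55487 gene IDs counted in each library. Cells from the hippocampi of newborn C57Bl/6 mice (postnatal day 1) were seeded at 200000 cells on the soma side of a microfluidic chamber, from which axons grow through narrow channels to a second compartment. Every culture, controls included, grew in medium with magnetic nanoparticles (MNPs, 5 µg/ml). Stretched cultures spent the time between DIV1 and DIV6 (DIV, day in vitro) in a magnetic field gradient of 50 T/m that drags the particles, whereas controls had a null gradient. Axons were sampled from 5 control and 6 stretched cultures, and somata from 6 of each. The axonal samples are labelled as a pure axonal preparation and the soma samples as the total culture, so a soma library can hold every cell type of the dissociated hippocampus.

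MAPs bind along microtubules and set how stable, bundled and accessible the lattice is. In neurons they divide the cell: MAP2 is known for dendrites and tau, the product of Mapt, for axons, while MAP1B and doublecortin are known for growing axons and migrating young neurons. The collapsin response mediator proteins (CRMPs) encoded by Dpysl2 and Dpysl3 bind tubulin and act in axon outgrowth and growth cone guidance.

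Depth was 16.4 to 43.05 M counts per library (M, 1000000). All libraries but control axon replicate 5 (43.05 M) lay at 30.7 M or below. Axonal libraries held counts for only 4263 to 10242 genes, the latter in control axon replicate 5, against 22452 to 24575 in somata. Levels are given in CPM, a gene's counts scaled to a library total of 1000000, and the floor of 3 counts corresponds to 0.0697 to 0.183 CPM. Floors cover counting error only, because amplified reads are not independent molecules. The axonal label was checked against marker lists. The summed CPM of 10 neuronal markers was 3043 to 7099 in axonal libraries and 8476 to 11479 in soma libraries. That of 10 astrocyte markers was 6609 to 29941 (median 21579) in control axons, 6635 to 24428 (median 10124) in stretched axons, 6027 to 15930 in control somata and 6139 to 12824 in stretched somata. Gfap, the astrocyte intermediate filament gene, was the most abundant, and none of the 10 was at 0 in either axonal group. For 10 RNAs known from dendrites or nuclei, the sum was 1010 to 2860 CPM in control axons, 543 to 3440 in stretched axons, 1820 to 2792 in control somata and 1272 to 2027 in stretched somata, and none of the 10 was at 0. Malat1, a nuclear RNA and the most abundant of them, had a mean of 1173 CPM in control axons and 1116 in control somata, and of 894 and 588 CPM in stretched axons and somata. A marker was at 0 only if no library of the group held a count. Microglial markers had medians of 0.111 (0 to 562) and 0.0642 CPM (0 to 403) in control and stretched axons. Oligodendrocyte markers had medians of 170 (8.04 to 438) and 13.8 CPM (0.0611 to 281). For fibroblast and vascular markers they were 176 (106 to 756) and 777 CPM (0 to 1487). Axonal libraries therefore carried marker RNA of astrocytes and of the dendritic or nuclear list, and a member's level there is a level in that mixture. The part of these RNAs in the members' values was not tested.

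Among the somata, control soma replicate 4 lay with the stretched libraries for most members, and results that rest on it are given with and without it. Soma libraries also fell into 2 sets by the Y-linked gene Eif2s3y, with 24.7 to 28.7 CPM in control replicates 1, 2 and 3 and stretched replicates 1, 2 and 8, and 5.39 to 13.2 CPM in replicates 4, 5 and 6 of both groups. The labels name no batch. They do not say whether replicates came from separate dissections, so p-values measure the spread between these samples, which may be technical. In these bulk samples, fewer cells of a type and less RNA per cell cannot be told apart.

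The 10 genes lie on 10 different chromosomes of mm10 and all are protein coding. Map1a spans chr2:121289600-121310832 on the plus strand and Map1b chr13:99421446-99516540 on the minus strand. Map2 lies at chr1:66175273-66442583 (plus), Map4 at chr9:109931460-110083955 (plus), Map6 at chr7:99267447-99337137 (plus) and Mapt at chr11:104231390-104332090 (plus). Dcx lies at chrX:143855842-143933311 (minus), Dclk1 at chr3:55242364-55539068 (plus) and Dpysl2 at chr14:66802864-66868688 (minus). Exons of Map1a overlap those of Ppip5k1 on the other strand, exons of Map2 overlap Gm10558, and exons of Dclk1 overlap Gm42609 and Gm21954. The strand setting of the counting is not given in the sources used here, so counts of these 3 members may include or lose reads of those partners.

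The promoters of Map1a, Map1b and Dclk1 are shown because these members moved differently in stretched somata (lower, not called and higher) and because their upstream windows lie outside annotated exons but for 2 bases in that of Map1a. Each line holds the 250 bases before a RefSeq start (GRCm38.p6), 5′ to 3′ on the gene's strand, and capitals mark the GC box GGGCGG, read on either strand as GGGCGG or CCGCCC, and the TATA box TATAAA.
Map1a, chr2:121289352-121289601, plus strand: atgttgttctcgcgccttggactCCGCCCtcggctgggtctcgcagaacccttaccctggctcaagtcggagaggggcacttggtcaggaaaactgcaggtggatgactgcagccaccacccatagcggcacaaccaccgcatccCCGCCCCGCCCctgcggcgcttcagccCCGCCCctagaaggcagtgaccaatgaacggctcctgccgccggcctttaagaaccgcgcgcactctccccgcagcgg
Map1b, chr13:99516603-99516852, minus strand: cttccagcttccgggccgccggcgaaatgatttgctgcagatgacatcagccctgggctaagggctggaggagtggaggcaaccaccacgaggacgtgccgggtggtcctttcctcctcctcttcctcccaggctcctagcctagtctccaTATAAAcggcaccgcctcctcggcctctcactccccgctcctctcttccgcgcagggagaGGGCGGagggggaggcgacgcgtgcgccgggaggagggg
Dclk1, chr3:55242114-55242363, plus strand: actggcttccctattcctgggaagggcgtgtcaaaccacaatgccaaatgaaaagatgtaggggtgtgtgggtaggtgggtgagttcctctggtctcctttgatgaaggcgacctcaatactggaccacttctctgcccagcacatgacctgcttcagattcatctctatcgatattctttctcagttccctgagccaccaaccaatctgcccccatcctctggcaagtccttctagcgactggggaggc
The Map1a window held 4 GC boxes, with 2 of them overlapping in 1 capital run, at a GC content of 66%. In the Map1b window there was 1 GC box and 1 TATA box (GC 66.4%), and the Dclk1 window shown held neither (GC 52.4%). Windows of another Dclk1 start (chr3:55461478-55461727, GC 46.8%) and of Map4 (chr9:110051771-110052020, GC 43.6%) are not printed. They also lie outside exons of their own gene and held neither. Windows that overlap annotated exons of their own gene are not printed either. Of these, another Map4 window (chr9:109931524-109931773, GC 74%) held 3 GC boxes and that of Map2 (GC 81.2%) held 5. Each Dcx window held 1 TATA box and no GC box. Of 32851 RefSeq promoter windows of the same length, 32.7% held a GC box and 12.4% a TATA box. A match describes the letters and is not evidence of a bound factor.

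Together the members took 2.04 ± 0.149% of all counts in control somata (SD, n = 6) and 2.17 ± 0.218% in stretched somata (SD, n = 6). In axons their share was 1.19 ± 0.179% in control (SD, n = 5) and 1.14 ± 0.326% in stretched cultures (SD, n = 6). Map1b alone made up 51.2 ± 2.24% of the members' counts in control somata, 49.2 ± 1.82% in stretched somata, 52.4 ± 6.88% in control axons and 48.2 ± 11.6% in stretched axons. The ranges of this share overlapped in all 4 groups.

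**Figure D1:**
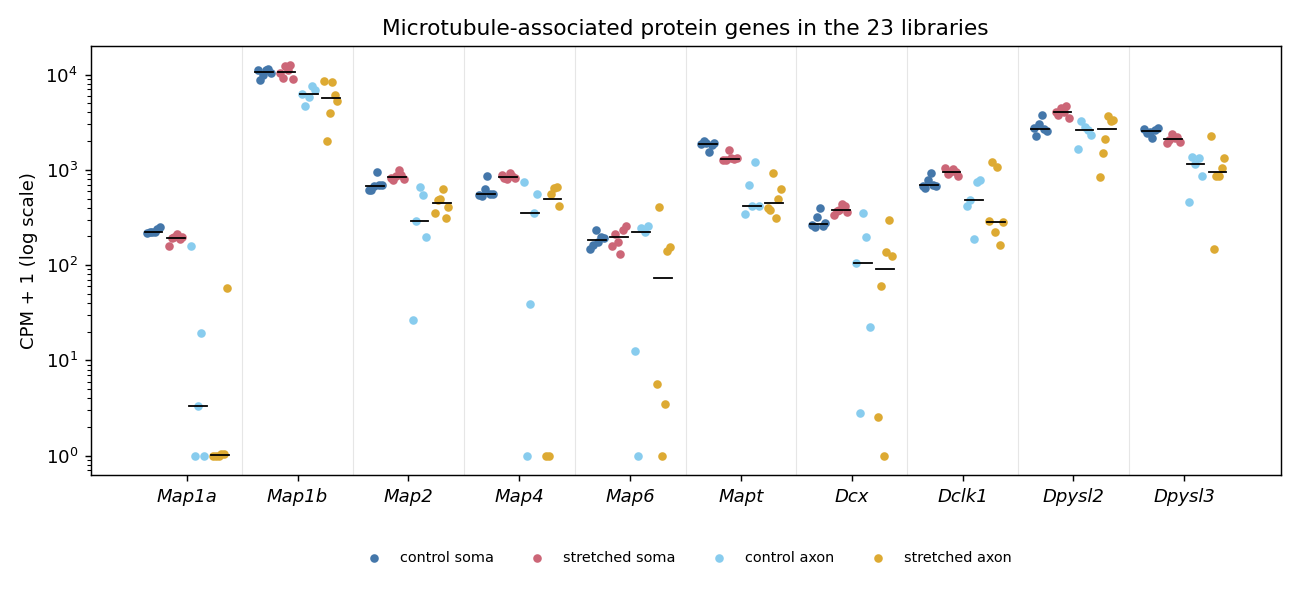
Level of each gene in all 23 libraries, as CPM + 1 on a log axis; points are libraries coloured by group and the black bar is the group median. Soma libraries form tight clusters for every gene, while axonal points spread downward, to 0 counts for Map1a, Map4, Map6 and Dcx.

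Levels of different genes were compared per kilobase of annotated exon sequence. In control somata Map1b (660.1 ± 67.3 CPM per kb, SD, n = 6) and Dpysl2 (630.1 ± 113) came first, with overlapping ranges. Dpysl3 followed at 381 ± 32.2 CPM per kb and Mapt at 243 ± 20.6, each separated from its neighbours without overlap. A middle group of Dclk1 (47.9 ± 6.98), Map2 (42.9 ± 7.59) and Map4 (40.4 ± 8.41) overlapped within itself, and so did a low group of Dcx (23.2 ± 4.64), Map6 (20.1 ± 3.22) and Map1a (18.8 ± 1.15 CPM per kb).

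In stretched somata Dpysl2 had the highest mean level, at 906 ± 100.0 CPM per kb, against 675 ± 91.9 for Map1b, with ranges that still overlapped. The first 5 places in control axons were Dpysl2, Map1b, Dpysl3, Mapt and Dclk1, at 562, 394, 157, 81.6 and 34.1 CPM per kb. Of neighbours in that axonal order, only Map1b and Dpysl3 had ranges that did not overlap, and in stretched axons every pair of neighbours overlapped. Map1a was last in all 4 groups. With lengths taken from the longest transcript, Map1b and Dpysl2 were both at 906 CPM per kb in stretched somata, and Map2 and Map4 stood above Dclk1 and Map6 above Dcx in control somata.

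The first question is what stretch did to these transcripts in somata. With edgeR's quasi-likelihood test over all 15632 genes, 7 of the 10 members had an adjusted p under 0.05, against 25.1% of all genes tested. All members had soma means of 188 CPM or more, and the share called among genes of like level was not computed. Map4, Dcx, Dclk1 and Dpysl2 rose (11.2% of all genes did), and Map1a, Mapt and Dpysl3 fell (13.9% of all genes). Map1b, Map2 and Map6 did not pass. The changes were small on a log2 scale, from -0.48 for Mapt to 0.49 for Dpysl2, with a median over the members of 0.14 beside -0.03 for all genes tested.

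**Figure D2:**
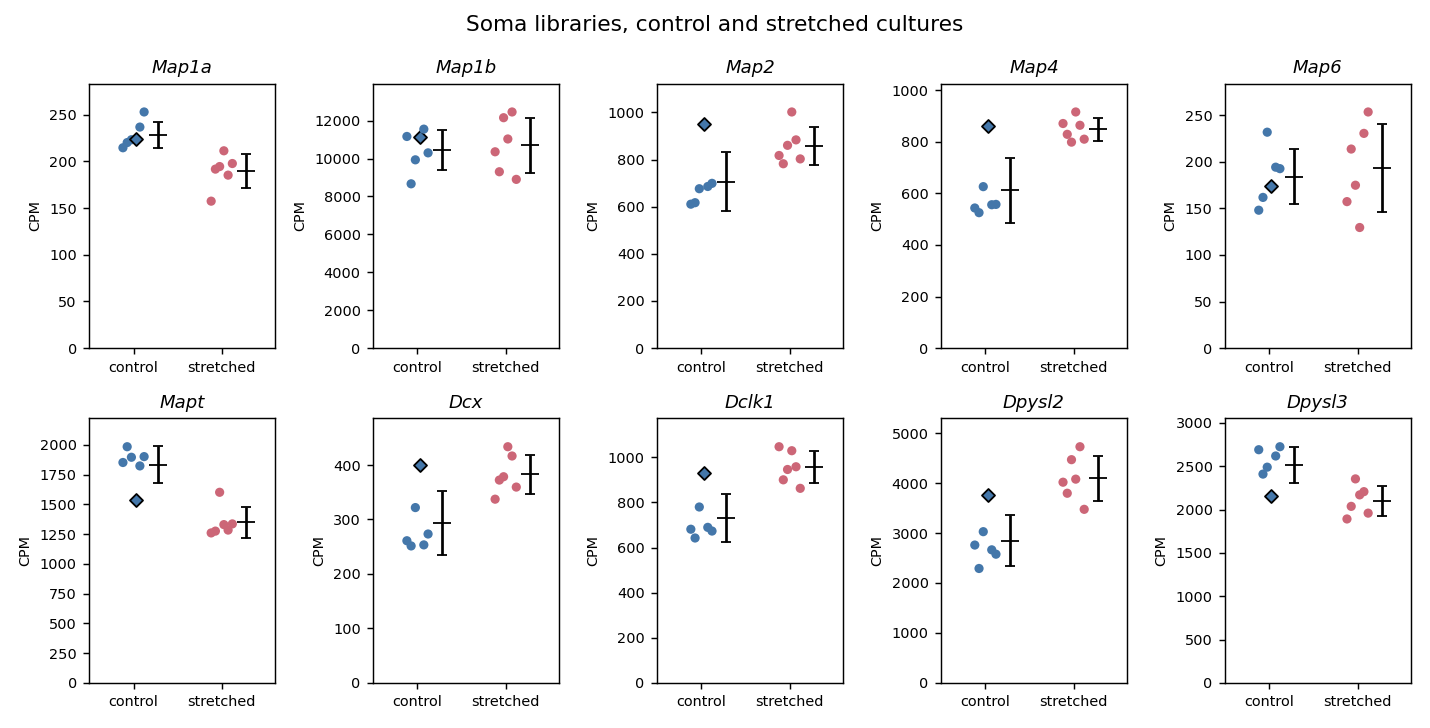
CPM of each gene in the 6 control and 6 stretched soma libraries; points are libraries, the diamond is control soma replicate 4, and bars give mean ± SD. The diamond lies inside or near the stretched cluster for Map2, Map4, Mapt, Dcx, Dclk1, Dpysl2 and Dpysl3.

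The MAP1 genes encode large proteins that are cleaved into a heavy and a light chain; MAP1B is abundant in growing neurites and MAP1A in mature neurons. Map1a ranged from 215 through a median of 223 to 253 CPM in control somata and from 157 through 193 to 211 CPM in stretched somata. It was the only member whose 2 soma groups did not overlap, a separation seen in 4.04% of all genes tested and downward in 2.73%. Map1a fell by 0.31 on the log2 scale (SE 0.08, edgeR adjusted p = 0.0124), and control replicate 4 (224 CPM) lay with the other controls.

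Map1b, the most abundant member, ranged from 8666 through 10723 to 11549.5 CPM in control and from 8900.3 through 10693 to 12455 CPM in stretched somata. Its means of 10459.5 ± 1066 and 10699.5 ± 1457 CPM (SD, n = 6 each) overlapped almost entirely. The log2 difference of Map1b was -0.01 with a 95% interval of -0.22 to 0.21 (edgeR adjusted p = 0.972), an interval that leaves room for a change up to that size in either direction.

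Map2, Map4 and Mapt share a related microtubule-binding repeat region; MAP4 is the broadly expressed member, also found outside neurons. Map2 ranged from 611 through 681 to 950.1 CPM in control and from 782 through 839 to 1002 CPM in stretched somata. Control replicate 4 held the 950.1 CPM, and the other 5 controls lay at 699 CPM or below, under every stretched library. The log2 difference of Map2 was 0.24 (SE 0.10, edgeR adjusted p = 0.0929), and it passed without control soma replicate 4 (0.33, adjusted p = 0.00235).

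For Map4 the control somata ran from 525 through 557 to 862 CPM and the stretched somata from 799 through 847 to 916 CPM. The 862 CPM again belonged to control replicate 4, and the next control lay at 626 CPM. Map4 rose by 0.43 (SE 0.10, edgeR adjusted p = 0.0110).

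Mapt moved the other way, from 1536 through 1874 to 1984 CPM in control to 1260.05 through 1307 to 1602 CPM in stretched somata. The 2 groups overlapped only through the libraries numbered 4, at 1536 CPM in control and 1602 CPM in stretched somata, and the other controls lay at 1823 CPM or above. Mapt fell by 0.48 on the log2 scale (SE 0.08, edgeR adjusted p = 0.00392), the lowest value of the 10.

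Map6 encodes the protein known as STOP, which keeps microtubules stable against cold. It ranged from 148 through 183 to 232 CPM in control and from 129 through 194 to 253 CPM in stretched somata, so the stretched range enclosed the control range. The log2 difference of Map6 was 0.03 with a 95% interval of -0.28 to 0.34 (edgeR adjusted p = 0.894).

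Dcx and Dclk1 encode doublecortin, a microtubule-binding protein of migrating young neurons, and its relative with an added kinase domain. Dcx ranged from 251 through 267 to 401 CPM in control and from 337 through 375 to 434 CPM in stretched somata. Only control replicate 4 lay among the stretched libraries. Dcx rose by 0.35 (SE 0.11, edgeR adjusted p = 0.0326), the call nearest to the threshold among the 7.

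Dclk1 ranged from 642 through 685 to 929 CPM in control and from 863 through 952 to 1047 CPM in stretched somata. Its control replicate 4 held the 929 CPM, and the next control lay at 779.9 CPM, below all stretched libraries. Dclk1 rose by 0.35 (SE 0.09, edgeR adjusted p = 0.0141).

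The 2 CRMP genes moved in opposite directions. Dpysl2, which encodes CRMP2, ranged from 2291 through 2712 to 3769 CPM in control and from 3475 through 4049 to 4729 CPM in stretched somata. Control replicate 4 held the 3769 CPM and the other controls stayed at 3028 CPM or below. Dpysl2 rose by 0.49 (SE 0.11, edgeR adjusted p = 0.00874), the highest value of the 10.

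Dpysl3, which encodes CRMP4, ranged from 2157 through 2554 to 2726 CPM in control and from 1892 through 2103.5 to 2354 CPM in stretched somata. Here control replicate 4 was the lowest control, and it was the only control inside the stretched range. Dpysl3 fell by 0.30 on the log2 scale (SE 0.08, edgeR adjusted p = 0.0173).

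**Figure D3:**
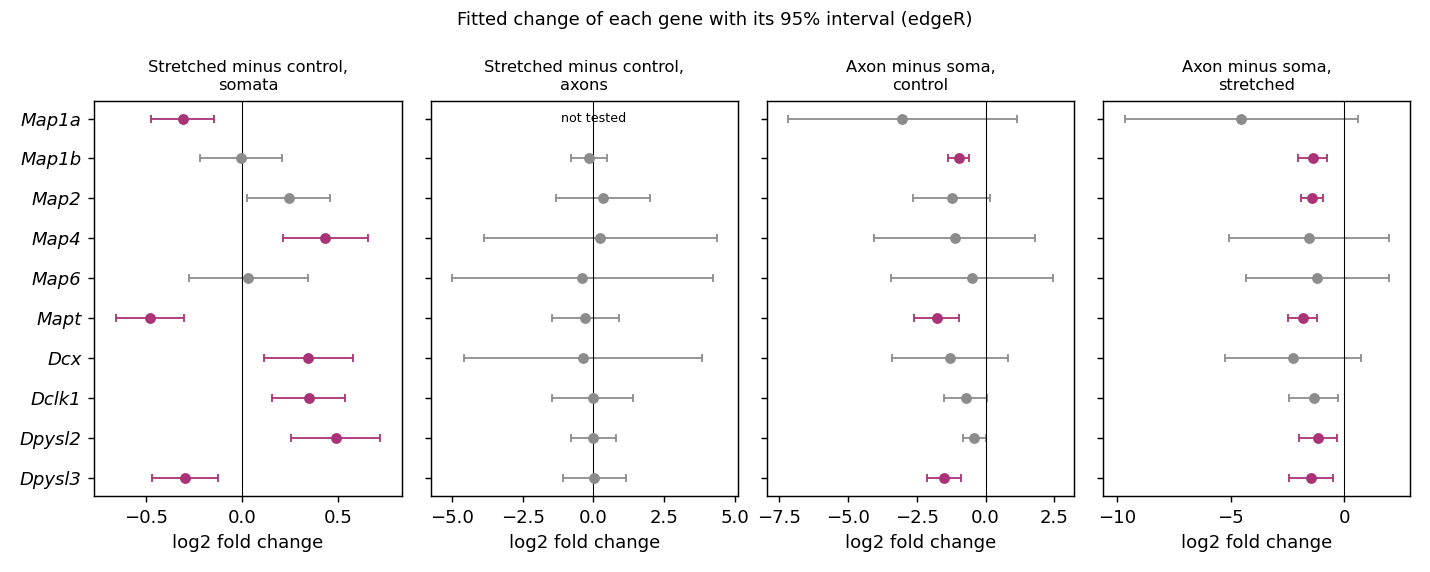
Fitted log2 fold change of each gene with its 95% interval in the 4 comparisons, from edgeR; purple marks an adjusted p under 0.05, and each panel has its own horizontal scale. The soma panel spans less than 1 log2 unit to either side, whereas intervals in the panels with axonal libraries reach several units for Map1a, Map4, Map6 and Dcx.

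Ratios of 2 members within a library do not depend on its depth or scaling. The following ratios were picked after the values had been seen and carry no test. Dpysl2 had 1.15 ± 0.309 counts per Dpysl3 count in control somata and 1.95 ± 0.151 in stretched somata (SD, n = 6 each). In control replicate 4 that ratio was 1.75, the other controls lay between 0.945 and 1.22, and the stretched libraries between 1.77 and 2.14. Mapt had 3.11 ± 0.697 counts per Map4 count in control and 1.596 ± 0.214 in stretched somata, and 2.67 ± 0.559 against 1.58 ± 0.184 per Map2 count. Dclk1 and Dcx kept nearly the same mean ratio, at 2.52 ± 0.144 in control and 2.52 ± 0.296 in stretched somata.

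**Figure D4:**
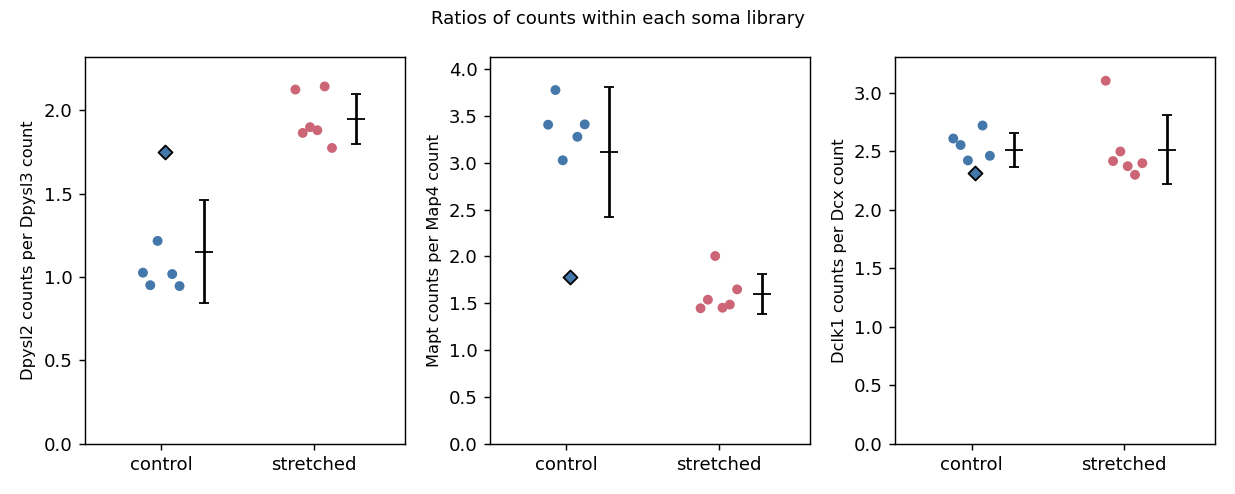
Ratio of the counts of 2 genes within each soma library, for Dpysl2 over Dpysl3, Mapt over Map4 and Dclk1 over Dcx; points are libraries, the diamond is control soma replicate 4, and bars give mean ± SD. In the first panel the diamond (1.75) lies just under the lowest stretched point (1.77), in the second every control but the diamond lies above the stretched points, and the third panel has the same mean in both groups.

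The count of called members depended on which soma libraries entered. Without control soma replicate 4 there were 8 calls, with Map2 added, while 38.3% of all genes were called. Within the high Eif2s3y set (3 control and 3 stretched libraries) 7 members passed: Map2, Map4, Dcx, Dclk1 and Dpysl2 were higher and Mapt and Dpysl3 lower, and Map1a missed (-0.27, edgeR adjusted p = 0.0605), with 29.2% of all genes called. Within the low set (also 3 against 3) none passed with edgeR, although 5 had an unadjusted p under 0.05 and the smallest adjusted p was 0.272. In that set edgeR called 0 of 15718 genes, with 2739 at an unadjusted p under 0.05. Without control soma replicate 4, the low set gave 8 calls, and 27.5% of all genes were called. That fit set control replicates 5 and 6 against stretched replicates 4, 5 and 6 and was chosen after the data had been seen. The library was singled out because it lay with the stretched ones, so leaving it out favours more calls. Log2 differences in the complete low set kept the sign of the 7 called members, from -0.35 for Mapt to 0.53 for Dpysl2.

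Leaving out single libraries changed the call of 3 members. Dcx was lost without control soma replicate 1, 2, 5 or 6 or stretched soma replicate 5 or 6 (edgeR adjusted p up to 0.0723), Dpysl3 without control soma replicate 5 (adjusted p = 0.0512), and Map2 was gained without control soma replicate 4. A single edgeR fit over all 4 groups, which shares 1 spread per gene between axons and somata, called none of the 10 in somata, with none at an unadjusted p under 0.05. That fit called 0 of 16113 genes for stretch in somata (262 at an unadjusted p under 0.05) and 3870 for stretch in axons.

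Stretch effects in somata also ran with transcript length. Over all genes tested the median log2 difference was -0.40 for longest transcripts under 1 kb, -0.14 at 2 to 3 kb, 0.19 at 4 to 6 kb, 0.25 at 6 to 8 kb and 0.22 from 8 kb on. Map6, Mapt, Dpysl2 and Dpysl3 fall in the 4 to 6 kb class, Map2, Map4 and Dclk1 in the 6 to 8 kb class, and Map1a, Map1b and Dcx in the longest. The 3 members that fell thus went against the median of their length class. With offsets for transcript length and GC content, 5 members passed in edgeR, beside 16.5% of all genes. Dclk1 (0.12, adjusted p = 0.193) and Dcx (0.08, adjusted p = 0.430) were lost, and Map2 came to 0.03. Map4 (0.28) and Dpysl2 (0.35) stayed higher, and Map1a, Mapt and Dpysl3 stood at -0.43, -0.64 and -0.49.

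**Figure D5:**
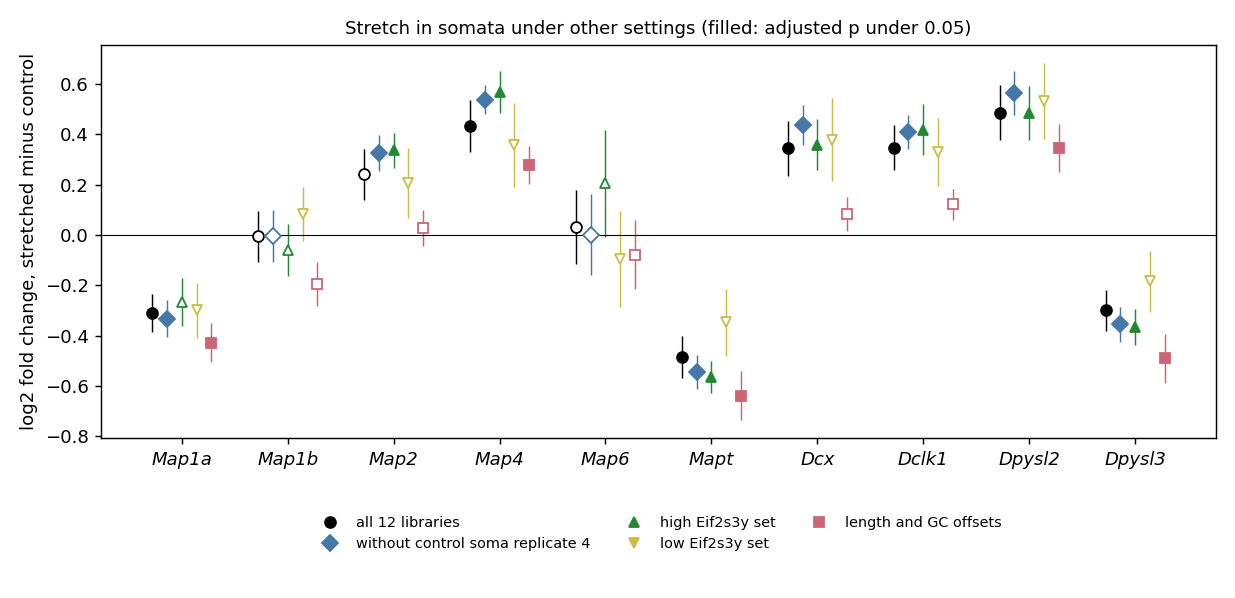
Log2 fold change of each gene in somata (stretched minus control) with its SE as bars, for all 12 libraries, without control soma replicate 4, within each Eif2s3y set, and with offsets for length and GC content; filled symbols have an adjusted p under 0.05. The called genes keep their sign in all 5 settings, and the low set shows no filled symbol.

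Markers of cell types moved in somata as well. Of 10 neuronal markers, Syt1 and Elavl4 rose and Tubb3, Rbfox3, Stmn2, Gap43 and Rtn1 fell, and their summed level ran from 8920 to 11479 CPM in control and from 8476 to 9218 CPM in stretched somata. None of 10 astrocyte markers passed in edgeR. Of 9 microglial markers tested, C1qa, C1qb and Tyrobp fell, with a summed level of 49.1 to 97.1 CPM in control and 33.8 to 43.9 CPM in stretched somata. Of the dendritic or nuclear list, Malat1 (-0.96, edgeR adjusted p = 0.0188) and Camk2a (-0.26, adjusted p = 0.0390) fell and Shank1 (0.57, adjusted p = 0.0165) rose. Dcn, of the fibroblast and vascular list, fell (-0.83, edgeR adjusted p = 0.0191), and Mog, of the oligodendrocyte list, rose (0.73, adjusted p = 0.0156). The part of these markers in the members' values was not tested.

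Other genes of microtubule regulation were followed as 5 lists, 78 genes in all. In somata 75 were tested by edgeR, of which 15 rose and 8 fell where 11.2% of all genes rose and 13.9% fell, with a median log2 difference of 0.07 beside -0.03 for all genes tested. Of 21 tested structural MAPs and CRMPs, 5 rose (Dpysl5, Tppp, Mtus1, Mtus2, Eml1) and 4 fell (Map7d1, Map9, Crmp1, Trim46). Among the 18 proteins that bind plus or minus ends, 4 rose (Mapre2, Clasp1, Clip2, Nav1) and none fell. Of 14 tubulin-modifying enzymes, 4 rose (Ttl, Agtpbp1, Vash2, Hdac6) and Sirt2, a deacetylase, fell. Mapk8 and Mapk9 rose and Mark4, Cdk5 and Ppp2ca fell among 16 kinases and phosphatases that act on MAPs, and none of 6 tested severing enzymes passed.

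The largest changes among these were named by rule. Mapk9, which encodes the kinase JNK2, ranged from 30.7 to 70.0 CPM in control and from 53.4 to 119 CPM in stretched somata and rose by 0.87 (SE 0.24, edgeR adjusted p = 0.0195). Tppp, which encodes a tubulin polymerization promoting protein, ran from 51.2 to 107 CPM in control and from 102 to 134 CPM in stretched somata and rose by 0.75 (SE 0.16, edgeR adjusted p = 0.00726). Control replicate 4 was the highest control for both.

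Map7d1, a relative of the kinesin-recruiting protein MAP7, ran from 35.1 to 152 CPM in control and from 24.9 to 41.3 CPM in stretched somata and fell by 1.34 on the log2 scale (SE 0.30, edgeR adjusted p = 0.0100). Mark4, a kinase that phosphorylates tau and other MAPs, ran from 8.36 to 25.4 CPM in control and from 4.78 to 13.3 CPM in stretched somata and fell by 1.01 on the log2 scale (SE 0.28, edgeR adjusted p = 0.0187). For these 2 genes control replicate 4 was the lowest control.

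Each member's profile over the 12 soma libraries was set beside those of 9304 genes with at least 10 CPM, by the root mean square of the differences between centred log2 values. Nearest to Map4 was Gprasp1 (0.05), to Dclk1 Gnl3l (0.04), to Dpysl2 Taok1 (0.05), to Dcx Klhl2 (0.06) and to Map2 Mbd1 (0.05). On the side of the members that fell, Plekhj1 was nearest to Mapt (0.05), Ppp1ca to Dpysl3 (0.05) and Dido1 to Map1a (0.07). Golgb1 was nearest to Map1b (0.06) and Dner to Map6 (0.11). The median distance of a gene to a member ran from 0.29 to 0.37. Within the family the nearest pair was Map4 and Dclk1, at 0.08.

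In axons the first measure is presence. Map1b, Map2, Mapt, Dclk1, Dpysl2 and Dpysl3 had counts in all 11 axonal libraries, Dcx in 10, Map6 in 9, Map4 in 8 and Map1a in 6, of which 4 reached 3 counts. Genes with a soma mean of 100 to 500 CPM, the class of Map1a, Map6 and Dcx, had counts in a median of 8 axonal libraries, and 19.7% of them in all 11. For 500 to 1000 CPM, the class of Map2, Map4 and Dclk1, the median was 11, and 69.4% were in all 11. Map4 therefore lay below the median of its class and Map1a below that of its own.

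Spread between axonal libraries was wide. The coefficient of variation over the 11 libraries was 0.324 for Map1b and 0.361 for Dpysl2, and it exceeded 1 for Map6, Dcx and Map1a, at 1.06, 1.04 and 2.26. All genes with at least 100 CPM in somata had a median of 1.04 over axonal and 0.153 over soma libraries. Over the 12 soma libraries the members lay between 0.116 for Map1b and 0.230 for Dpysl2.

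Map1b had 6277, 4701, 5781, 7601 and 6859 CPM in control axon replicates 1, 2, 3, 5 and 7, and from 2019 through a median of 5734 to 8525 CPM in stretched axons. The control values lay inside the stretched range. Map1a had 158, 0, 2.34, 18.4 and 0 CPM in the same control libraries, and in stretched axons from 0 through 0.0175 to 57.0 CPM. Its mean rested on 1 library per group: without control axon replicate 1 it fell from 35.7 to 5.20 CPM, and without stretched axon replicate 8 from 9.51 to 0.0174 CPM.

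Map2 had 25.6, 290, 656, 538 and 195 CPM in control axons and from 308 through 444 to 635 CPM in stretched axons. Mapt had 339, 693, 416, 1212 and 412 CPM in control axons and from 314 through 445 to 924 CPM in stretched axons. Map4 had 744, 0, 37.9, 348 and 552 CPM in control axons and ran from 0 through 491 to 663 CPM in stretched axons, with 0 counts in 2 stretched libraries. For these 3 genes the 2 axonal groups overlapped widely.

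Map6 had 11.6, 0, 243, 222 and 254 CPM in control axons and from 0 through 71.7 to 405 CPM in stretched axons. Dcx had 104, 1.80, 353, 197 and 21.4 CPM in control axons and from 0 through 90.5 to 298 CPM in stretched axons. Map6 moved between near absence and its soma level from one library to the next. Dcx did so in control axons, whereas in stretched axons it stayed below its lowest stretched soma library (337 CPM). Dclk1 had 412, 484, 188, 740.0 and 784 CPM in control axons and from 164 through 285 to 1210.1 CPM in stretched axons.

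Dpysl2 had 1649, 3287, 2817, 2619 and 2329.8 CPM in control axons and from 831 through 2692 to 3665 CPM in stretched axons. Dpysl3 had 455, 1373, 1163, 1327 and 853 CPM in control axons and from 148 through 957 to 2284 CPM in stretched axons. After Map1b these CRMP genes were the most abundant members in axons in CPM, and again the control values lay within the stretched range.

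Stretch in axons gave no call. Of the 9 members that passed the filter on low counts (Map1a did not), none had an adjusted p under 0.05 in edgeR or DESeq2 and none an unadjusted p under 0.05 in either, and 0 of 4947 genes passed after adjustment (0%, with 46 at an unadjusted p under 0.05 and 18 called by DESeq2). Log2 differences ran from -0.39 for Map6 (SE 2.16) to 0.33 for Map2 (SE 0.78). The narrowest 95% intervals were those of Map1b, -0.80 to 0.49, and Dpysl2, -0.80 to 0.78, so a change of the size seen in somata could not be told from none. On simulated counts with the real spread, 0% of 100 genes drawn at random and changed 4-fold were recovered in this comparison. A 4-fold change lay outside the intervals of Map1b and Dpysl2, so that 0% does not describe these 2 members. The limma voom fit called 1 member, Map1b, at 0.58 (adjusted p = 0.0157), against -0.16 (SE 0.30) in edgeR. The median over all 4947 genes in the voom fit was 0.89, so that value lay below the median, and voom called 10 genes. Of the other microtubule genes 34 were tested and none was called by edgeR.

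Axon and soma levels were then compared within each condition. In control cultures edgeR called 3 members lower in axons: Map1b (-0.98, SE 0.17, adjusted p = 0.000388), Mapt (-1.78, SE 0.37, adjusted p = 0.00175) and Dpysl3 (-1.52, SE 0.28, adjusted p = 0.000769). Of 14728 genes tested 35.3% were called, 34.4% lower, and their median log2 difference was -1.40, or -1.27 when libraries were scaled by total counts alone. Map1b thus lay above that median although it was called lower. Mapt lay below it, and Dpysl3 was within its SE of it. Without control axon replicate 5 the median was -5.98, and 53.6% of genes were called. Mapt and Dpysl3 lay above that value, at -2.31 and -1.70 or higher without any single library. Dclk1 missed (-0.73, adjusted p = 0.164) and was called without control axon replicate 5 (-0.98, adjusted p = 0.0337).

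Dpysl2 had the smallest difference, -0.42 with a 95% interval of -0.84 to 0.01 (edgeR adjusted p = 0.140), and its axonal mean was 89.2% of its soma mean in CPM. Map6 followed with 79.7%, Dclk1 with 71.2% and Map1b with 59.7%, while Map1a had 15.6%. Map1a, Map1b, Map2, Mapt and Dpysl3 had every axonal library below every soma library on the TMM-scaled values of the fit, a separation downward shown by 41.6% of all genes tested. In plain CPM Map2 overlapped, axon replicate 3 reaching 656 CPM against 611 in the lowest soma library.

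In stretched cultures 5 members were lower in axons: Map1b (-1.40, SE 0.30, edgeR adjusted p = 0.00252), Map2 (-1.42, SE 0.21, adjusted p = 0.000122), Mapt (-1.83, SE 0.29, adjusted p = 0.000181), Dpysl2 (-1.16, SE 0.37, adjusted p = 0.0344) and Dpysl3 (-1.46, SE 0.45, adjusted p = 0.0261). Of 14466 genes 29.3% were called, 28.4% lower, with a median of -1.13, or -0.73 with total counts alone. On TMM-scaled values every member but Map6 had all axonal libraries below all soma libraries, which 37.4% of all genes showed. In plain CPM 6 members separated so (Map1a, Map1b, Map2, Map4, Mapt, Dcx), and Dclk1, Dpysl2 and Dpysl3 overlapped as Map6 did. Map1a had an axonal mean of 5.02% of its soma mean, and Dpysl2 of 59.8%.

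The calls of Dpysl2 and Dpysl3 in stretched cultures changed with single libraries and with the settings. Dpysl2 was lost without stretched axon replicate 4 or stretched soma replicate 1, 2, 4, 5 or 6 (edgeR adjusted p up to 0.0678), and Dpysl3 without stretched axon replicate 4 or 5 (adjusted p up to 0.0814). Both were lost with total counts alone (-0.74 and -0.95) and without the filter. Dclk1 (-1.34, adjusted p = 0.0656) was gained without stretched axon replicate 2 or 5, and Map1a (-4.55, adjusted p = 0.230) without stretched axon replicate 8, the only stretched axonal library with more than 3 counts of it.

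Of the 78 other microtubule genes 74 were tested in each condition, with 15 called lower in axons in control and 18 in stretched cultures by edgeR, where 34.4% and 28.4% of all genes were called lower, and none of the 74 was called higher. Named by rule, Mtus1 and Fignl1 had no count in the 5 control axon libraries, against 22.4 to 40.3 and 11.7 to 23.6 CPM in control somata. In stretched cultures Nav3, which encodes a protein of growing microtubule ends, had no count in 6 axonal libraries against 31.5 to 39.0 CPM in somata, and Katnal1, a relative of the severing enzyme katanin, stayed at 0.0506 CPM or below against 54.7 to 68.8 CPM. All 4 were counted in at least 2 axonal libraries of the other condition.

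Whether stretch acted differently on axons and somata was tested as an interaction over the 23 libraries with limma voom and a variance factor for each group. None of the 10 members passed, and none had an unadjusted p under 0.05, beside 3 of 16113 genes (0.0186%). The estimates ran from -3.62 for Map1a (SE 3.36) to 0.56 for Map2 (SE 0.85). For Mapt, which fell in somata, the difference was 0.16 with a 95% interval of -1.07 to 1.40, and for Dpysl2, which rose, it was -0.83 with an interval of -2.33 to 0.66. A response in axons equal to that in somata lay inside the interval of every member. On simulated counts 0% of 100 genes drawn at random and changed 4-fold were recovered in this contrast. A missing call therefore does not show an equal response. An edgeR fit of the same contrast called 3509 genes and none of the members.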

How the data were processed

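For every library the authors deposited raw read counts, whole numbers listed by Ensembl ID (23 files). The labels' protocols describe amplification of poly(A) RNA to cDNA with a low-input kit carrying molecular identifiers and paired-end sequencing; whether the identifiers were used is not given in the sources used here. The submitters' processing notes name fastp 0.20.1, STAR 2.7.08a, HTSeq 0.13.5 and the mm10 build. The rows of the deposited counts that name no gene, 14.2 to 24.4% of all reads, were left out. Reads of more than 1 place or gene were set apart there, so near-identical genes may be undercounted.

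Members and lists were chosen with earlier results of these data known. Symbols came from a table of gene names (55141 of 55487 IDs), and coordinates, lengths and GC content from GENCODE M21, which shares the build and held 55227 of the IDs. Each comparison was fitted on its own libraries with edgeR 4.0.16 in R 4.3.3 (filterByExpr, TMM, robust quasi-likelihood F test, Benjamini-Hochberg over all genes tested, threshold 0.05). SE is the log2 difference over the square root of F. The interaction used limma 3.58.1 (voomWithQualityWeights). Tested on simulated counts of the soma comparison (15632 genes), edgeR recovered 67% of 100 genes changed 2-fold and 92% of 100 changed 4-fold. Alternatives were other scalings, DESeq2 1.42.0, limma voom, no filter, 1 fit over all groups, the replicate number as a block, offsets for length and GC content (mgcv 1.9.3) and leaving out each library. The soma sets and removals of both libraries numbered 4 were chosen after seeing the data. Named are all members, and of the other pathway genes the 2 highest and 2 lowest log2 differences among those called with at least 10 CPM.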

Additional observations from a re-analysis of the deposited data

Results flagged for a closer look

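In groups of 5 or 6 libraries, 54 sets of values were checked for a highest or lowest library far from the rest, and 10 were marked. Chance alone trips this check in about 1 of 20 independent sets with normal spread. Some of these sets reuse the same counts, and the ratios were picked after the values had been seen, so that rate is only a guide. Control soma replicate 4 accounts for 5 of the 10 marked sets. It stood apart from the other controls in Map2 (950.1 CPM, next 699), Map4 (862 CPM, next 626), Mapt (1536 CPM, next 1823), Dpysl2 counts per Dpysl3 count (1.75, next 1.22) and Mapt counts per Map2 count (1.62, next 2.66). In every one of these it lay on the side of the stretched libraries.

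Stretched soma replicate 4 was the highest stretched library in Mapt (1602 CPM, next 1336) and in Mapt counts per Map4 count (2.01, next 1.65). Stretched soma replicate 1 was the highest in Dclk1 counts per Dcx count (3.10, next 2.50). Both marked values in axons belong to Map1a, with 158 CPM in control axon replicate 1 (next 18.4) and 57.0 CPM in stretched axon replicate 8 (next 0.0521).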

How the results depend on the processing

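In somata the count of 7 called members was 5 to 8 under the other alternatives and without single libraries, except for 1 fit over all 4 groups and the low Eif2s3y set, with 0 each. Those fits also called 0 of 16113 and 0 of 15718 genes (262 and 2739 at an unadjusted p under 0.05, edgeR). Members lower in axons numbered 7 (control) and 10 (stretched) with limma voom against 3 and 5, where voom called 66.0% and 69.2% of all genes lower. In stretched cultures 3 were called with total counts only, 3 without the filter, and 3 to 6 without single libraries. In stretched axons limma voom called 1 member and 10 genes in all. The members' share of counts rose to 2.34% (control soma) and 2.62% (stretched soma) with TMM-scaled totals. The cause of these moves was not tested.

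Signs turned only for members that had not passed in the main fit. No member had passed in axons or in the interaction, so there this could not be otherwise. In axons the members that turned were Map1b (0.58, voom), Dclk1 (0.044 with total counts, 0.041 with RLE and DESeq2), Dpysl2 (0.037 with RLE and DESeq2, 0.030 without filter, 0.017 in 1 fit over all groups) and Dpysl3 (-0.22, voom). In somata they were Map1b (0.033 with total counts, 0.019 without filter, 0.11 in 1 fit, 0.084 in the low set, 0.068 there without control replicate 4) and Map6 (-0.078 with offsets, -0.096 in the low set, -0.17 there without control replicate 4). In the interaction they were Map2 (-0.023, edgeR) and Dpysl3 (0.25 with edgeR, 0.074 with total counts, 0.047 without filter). Without single libraries, the axonal values ran from -0.29 to 0.027 for Map1b, -0.077 to 0.72 for Map4, -0.50 to 0.27 for Mapt, -1.07 to 0.25 for Dcx, -0.38 to 0.26 for Dclk1, -0.15 to 0.19 for Dpysl2 and -0.22 to 0.26 for Dpysl3. The soma values ran from -0.066 to 0.052 for Map1b and -0.061 to 0.12 for Map6. The interaction ran from -0.18 to 1.00 for Map2, -4.46 to 0.45 for Map4, -3.66 to 0.59 for Map6, -0.019 to 0.58 for Mapt and -0.28 to 0.48 for Dpysl3.

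Replicate numbers are shared between groups, and the labels do not say that they pair the libraries. In somata the correlation of deviations between same-numbered libraries was positive in all 5 pairs, from 0.0746 to 0.285. Its mean was 0.211 against -0.034 for different numbers, and in 2 of the 5 the own number gave the highest value. In axons the lowest of 3 pairs was 0.0307. The main fits do not use the numbers. With the replicate block 6 members passed in somata, Dpysl3 being lost (adjusted p = 0.0660, edgeR). In stretched cultures the block lost Map2 (adjusted p = 0.0629) and gained Map1a and Dclk1. The block turned signs of Map4 (-2.94), Dclk1 (0.29) and Dpysl3 (-0.72) in axons, Map1b (0.024) and Map6 (-0.0062, and -0.12 with offsets) in somata, and Mapt (-0.032) in the interaction.

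Total counts were alike in axons and somata. In simulated counts, 0% of 100 genes changed 4-fold were recovered for stretch in axons, axon against soma in either condition and the interaction. On the real counts of axon against soma, edgeR called 5196 genes in control and 4234 in stretched cultures. Map1b was called in control cultures at -0.98 (adjusted p = 0.000388, edgeR), a change smaller than 4-fold. The 0% therefore does not describe what the axon against soma comparisons can detect. A missing call in any of the comparisons named here still does not show an unchanged member.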

Other observations

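Of 74 tested genes of microtubule regulation other than the 10, 15 were called lower in axons than in somata in control and 18 in stretched cultures by edgeR, beside 34.4% and 28.4% of all genes, and none of the 74 was called higher. With edgeR, 7 of 20 tested structural MAPs and CRMPs were called lower in control cultures (Map7, Map10, Map6d1, Dpysl5, Mtus1, Mtus2, Eml2) and 6 of 20 in stretched cultures (Map7, Map10, Dpysl5, Crmp1, Tppp, Eml2). Of 18 proteins that bind microtubule ends, Camsap3, known for holding minus ends, was lower in control cultures, and Nav1, Nav3 and Camsap3 were lower in stretched cultures. Of 14 tubulin-modifying enzymes, Agbl4, Agbl5 and Vash1 were lower in both conditions and Ttll4 in stretched cultures. The first pair belongs to the enzymes that trim glutamates from tubulin tails, and Vash1 removes the terminal tyrosine. Of 16 kinases and phosphatases, Cdk5r2, an activator subunit of the kinase CDK5, was lower in both conditions, and Mark4 and Gsk3b in stretched cultures. Severing enzymes gave 3 calls of 6 tested in control cultures (Katna1, Katnal2, Fignl1) and 2 in stretched cultures (Katnal1, Katnal2). Several of the genes called lower were rare in TMM-scaled means of the 12 soma libraries: Agbl4 had 1.30 CPM, Cdk5r2 5.45, Vash1 5.79 and Camsap3 10.2. Others were abundant, with 407 CPM for Gsk3b, 1686 for Dpysl5 and 2204 for Crmp1. Axonal libraries held counts for only 4263 to 10242 genes, and these calls were not set beside genes of like soma level.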
